A study of Homo sapiens with 66 samples.

Results

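Carfilzomib-resistant L363 cells (L363CFZr), a subline of the established human plasma cell line L363 that carries acquired resistance to the proteasome inhibitor carfilzomib, were treated for 24 h with NCP26 at 1 µM or with DMSO, its solvent. NCP26 inhibits the prolyl-tRNA synthetase activity of EPRS1, the enzyme that charges tRNAs with glutamate and proline. The comparison uses 6 of the 66 RNA-seq libraries of the series, chosen by their titles, with 3 libraries of each group, and all genes left after a low-count filter. Both groups consist of the same resistant subline, so the comparison of NCP26 with DMSO says nothing on resistance itself, and no parental L363 libraries were analysed here. For context, the NCP26 libraries were also set against those of NCP22 and halofuginol, 2 further compounds of the study at 1 µM for 24 h in L363CFZr cells. The paper used both as compounds aimed at prolyl-tRNA synthetase. It describes their potency as lower or absent and found them beside the DMSO control in RNA-seq of AMO1 cells. Its binding assay still measured binding of both to the human enzyme, NCP22 most tightly with proline present and halofuginol with ATP present. The NCP26 response was furthermore compared with the NCP26 response of L363CFZr cells at 6 h and of AMO1 cells, another established human myeloma line without that resistance label, at 24 h. For RNA-seq the methods give the dose of 1 µM for AMO1 cells, and it was taken to hold for L363CFZr cells. They speak of biological triplicates in general but do not say for these libraries whether each was a separate culture. P-values therefore measure the spread between these samples.

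Aminoacyl-tRNA synthetases join each amino acid to its tRNA, and uncharged tRNA activates the kinase GCN2 (EIF2AK4). GCN2 phosphorylates eIF2α, which slows general translation but favours translation of the transcription factor ATF4, the centre of the integrated stress response (ISR). ATF4, alone or with C/EBP partners, switches on genes for amino acid synthesis, amino acid uptake and tRNA charging, and also stress effectors such as DDIT3 (CHOP), CHAC1 and TRIB3, the last of which restrains ATF4 in turn. Plasma cells make large amounts of secreted antibody, and amino acid supply and protein quality control are central to them.

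Total counts ran from 2487872 to 4084252 per library. The cell type was checked by its markers. Each of 10 plasma cell markers (among them SDC1, IRF4 and PRDM1) had a mean of at least 1 CPM (TMM-scaled counts relative to library size), and they summed to 5548 to 9230 CPM under DMSO and 4927 to 5584 CPM under NCP26. The lowest DMSO sum was that of replicate 2. JCHAIN was the largest member in each library, at 5965, 2991 and 5517 CPM under DMSO and 2356, 2558 and 2851 CPM under NCP26. Of the markers of other cells, 6 of 6 T and NK cell genes were at 0 in all 6 libraries. Myeloid markers summed to 0.372 to 0.763 CPM under DMSO and 0.328 to 1.69 CPM under NCP26, erythroid and platelet markers to at most 0.254 CPM, and stromal and epithelial markers to 3.59 to 7.45 CPM under DMSO and 1.74 to 3.93 CPM under NCP26. In bulk RNA, fewer cells of a kind and less RNA per cell cannot be told apart.

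DMSO replicate 2 stood apart. Its log2 CPM correlated with the other DMSO libraries at 0.915 and 0.918, against 0.986 between DMSO replicates 1 and 3, and it had the lowest total count. Its counts differed from those of the other 2 by 34.2 and 32.8 times what Poisson noise gives (chi-square per degree of freedom), against 2.26 between DMSO replicates 1 and 3 and 1.39 to 4.8 among the NCP26 libraries. The departure followed transcript length: in the shortest of 5 equal length classes, with a median transcript of 1300 bases, DMSO replicate 2 lay 0.69 below the other 2 on the log2 scale (median), and in the longest class, with a median of 7702 bases, 0.51 above them. Across the genes the deviation of this library correlated with log2 transcript length at 0.60, a description only, since genes within a library are not independent. No pair of libraries held identical counts. Counts of calls are therefore given with and without DMSO replicate 2, and single genes with all libraries unless both values are stated.

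**Figure D1:**
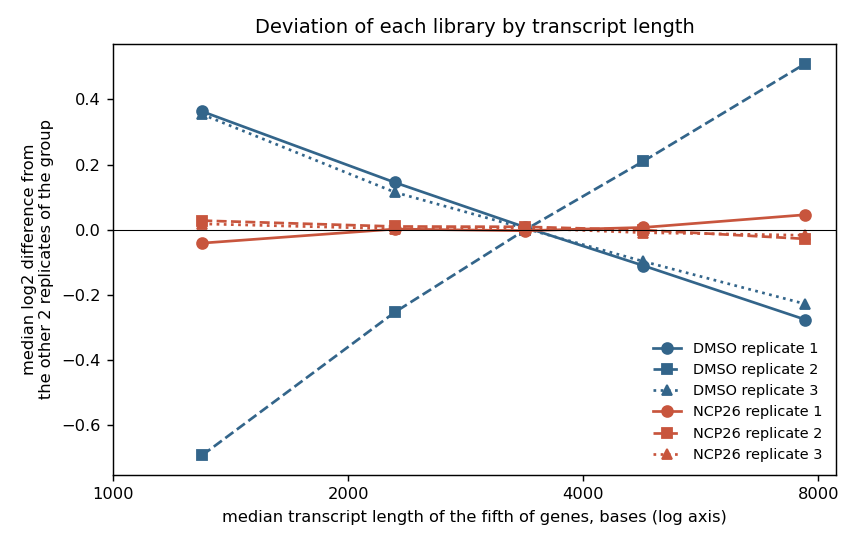
Median log2 difference of each library from the other 2 replicates of its group, for genes in 5 equal classes of transcript length (x axis, median length of the class in bases, log scale). DMSO replicate 2 runs from -0.69 at the shortest to 0.51 at the longest genes, while the NCP26 libraries stay between -0.04 and 0.05.

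With all 6 libraries, 757 of 10676 tested genes differed between NCP26 and DMSO (7.09%, adjusted p under 0.05, edgeR quasi-likelihood test). Of these, 289 were higher (2.71%) and 468 lower (4.38%) under NCP26, and 127 and 249 of them by at least 2-fold. Leaving out DMSO replicate 2, 3123 of 10916 genes were called (28.6%), 1433 higher (13.1%) and 1690 lower (15.5%). The counts of the gene lists below are to be read beside these shares. The 757 genes were all among these 3123 and all in the same direction, and 2366 genes were called only without that library. In all 757 the NCP26 and DMSO values did not overlap, which held for 31.9% of all tested genes. The median log2 fold change over all tested genes was -0.00 with all libraries and 0.01 without DMSO replicate 2. The genes called with 6 libraries had a median transcript length of 3432 bases when higher and 3435 when lower, but without DMSO replicate 2 those called higher were longer (4449 bases) than those called lower (2646 bases).

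ISR genes rose together and were among the largest rises of the comparison. Of 21 tested ISR transcription factors and regulators, 16 rose and 0 fell, with a median log2 fold change of 1.48, and without DMSO replicate 2 the count was 19 with a median of 1.52. ATF4 itself, on chromosome 22 (39519695 to 39522683, GRCh38), was at 517, 322 and 480 CPM in DMSO replicates 1, 2 and 3 and at 926, 942 and 905 CPM in the NCP26 libraries. All NCP26 values lay above all DMSO values, and the log2 fold change was 1.07 ± 0.20 (SE, n = 3 per group, adjusted p = 0.0206), or 0.89 without DMSO replicate 2. DDIT3, which encodes the pro-apoptotic factor CHOP, was at 21.6, 8.82 and 19.7 CPM under DMSO and at 94.2, 101 and 78.7 CPM under NCP26 (log2 fold change 2.42 ± 0.29, adjusted p = 0.00439). DMSO replicate 2 was the lowest library for both genes, and the log2 fold change of DDIT3 without it was 2.15. ATF3, another stress-induced bZIP factor, rose from 5.54 ± 1.598 to 33.2 ± 3.16 CPM (SD, n = 3), a log2 fold change of 2.55, or 2.42 without DMSO replicate 2.

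The largest rise among genes with a mean of at least 5 CPM was that of CHAC1, which degrades glutathione and lies on chromosome 15 (40952962 to 40956512). It was at 2.80, 3.07 and 2.02 CPM under DMSO and at 46.9, 48.2 and 40.2 CPM under NCP26 (log2 fold change 4.11 ± 0.21, adjusted p = 1.64e-04). TRIB3, a pseudokinase that restrains ATF4 and AKT, on chromosome 20 (362835 to 397559), stood at 79.3, 63.7 and 70.1 CPM and rose to 571, 576 and 536 CPM (log2 fold change 2.98 ± 0.15). For SESN2, a leucine sensor that inhibits mTORC1, the DMSO libraries had 28.98, 34.1 and 26.5 CPM and the NCP26 libraries 246, 238 and 223 CPM (log2 fold change 2.98 ± 0.15). These 3 genes moved by nearly the same amount whether or not DMSO replicate 2 was counted, at 4.21, 2.91 and 3.08 without it. INHBE, which encodes an inhibin beta subunit, rose by 3.05 ± 0.16 on the log2 scale. The bZIP partners of ATF4 rose too, CEBPB from 15.5 ± 4.13 to 81.1 ± 5.79 CPM and CEBPG from 46.2 ± 8.74 to 153 ± 3.70 CPM. Regulators of translation were also higher, with PPP1R15A (GADD34, which returns eIF2α to its unphosphorylated state) at a log2 fold change of 1.48 ± 0.12 and EIF4EBP1, which holds back cap-dependent initiation, at 1.87 ± 0.24. GDF15, a stress-induced cytokine, had 0, 0 and 0.25 CPM under DMSO and 6.28, 3.96 and 3.04 CPM under NCP26, so near to 0 in the controls that no fold is given. The kinases EIF2AK4 and EIF2AK3 (PERK) had log2 fold changes of 0.35 and -0.13, and neither was called with all libraries. EIF2AK4 was called without DMSO replicate 2 (0.39, adjusted p = 0.038, against 0.234 with it), and the mTORC1 inhibitor DDIT4 was called in neither fit (0.24 with all libraries).

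**Figure D2:**
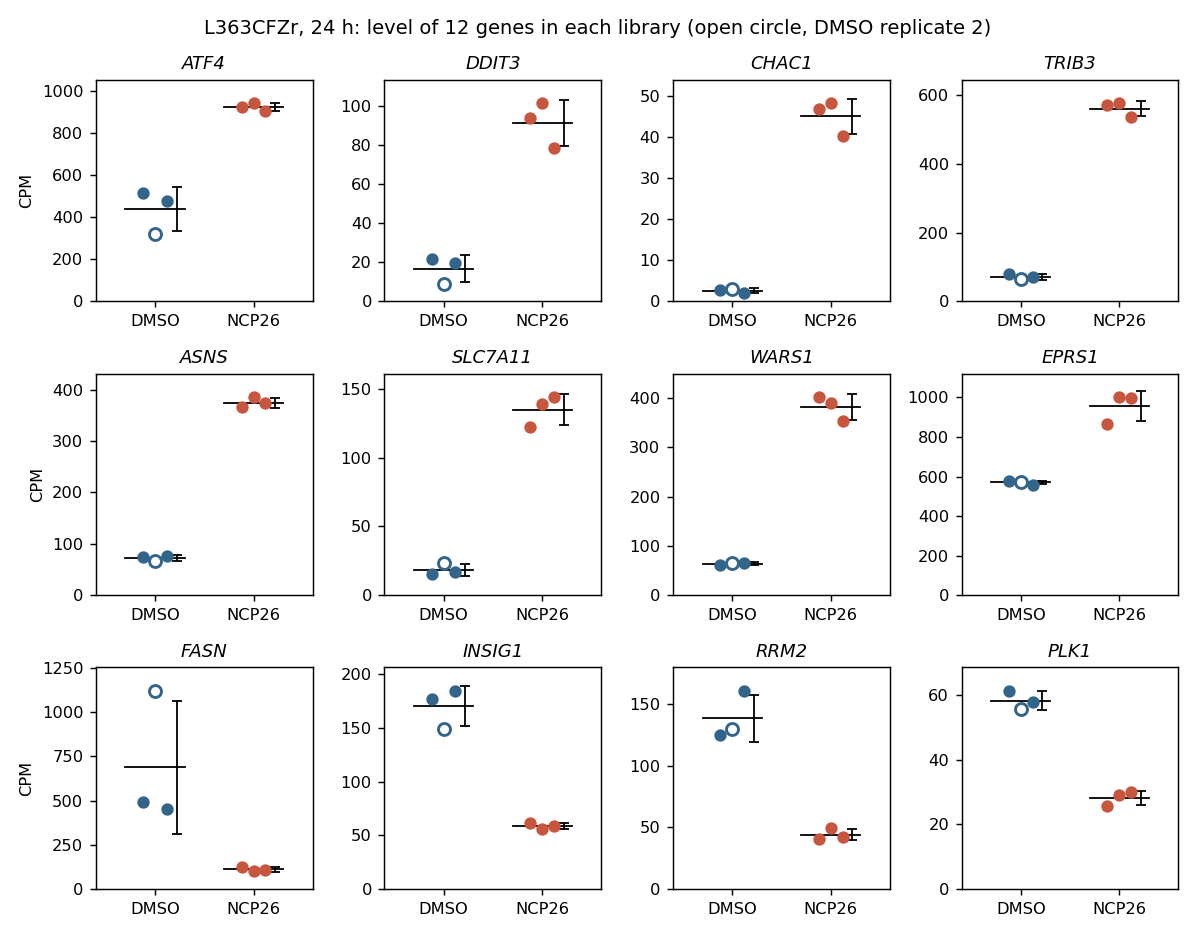
CPM of 12 genes (y axes from 0) in the 3 DMSO and 3 NCP26 libraries, with the mean (line) and SD (bar) of each group and DMSO replicate 2 as an open circle. In every panel the NCP26 libraries lie on one side of all DMSO libraries, and for FASN DMSO replicate 2 is at 1119 CPM against 491 and 452 CPM.

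ATF4 and C/EBP proteins bind a composite element read as TGATGNAA on either strand, and promoters were searched for these letters. RefSeq promoter windows (GRCh38.p14, 250 bases before to 50 bases after the start site) were found for 8671 of the 10676 tested genes. The letters stood in 1.48% of these windows and in 3.67% of all 27305 windows of the table. They were in 19 of the 231 windows of genes called higher (8.23%), 12 of them among the 94 windows of genes at least 2-fold higher (12.8%). Of the 362 windows of genes called lower 3 held them (0.829%), and of the 185 windows of genes at least 2-fold lower 0. A match is a description of the letters and not a binding site, and no match says only that they are absent from this window. The 10 matches below are those of the gene list members that were at least 2-fold higher, shown to let the element be compared between genes. Each is read 5′ to 3′ on the strand of the gene, the element is in capitals, and TTNCATCA is the same element on the other strand.
CHAC1, chr15:40953246-40953285, plus strand: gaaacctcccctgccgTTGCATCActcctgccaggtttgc
BCAT1, chr12:24949126-24949165, minus strand: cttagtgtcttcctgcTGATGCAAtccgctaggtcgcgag
ATF3, chr1:212565200-212565239, plus strand: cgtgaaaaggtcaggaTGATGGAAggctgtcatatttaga
ASNS, chr7:97872453-97872492, minus strand: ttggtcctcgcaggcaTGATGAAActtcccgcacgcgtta
SLC3A2, chr11:62881720-62881748, plus strand: taatgtgcaggactccTTACATCAgctcc
SLC7A1, chr13:29595658-29595697, minus strand: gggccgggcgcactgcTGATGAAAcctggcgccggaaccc
AARS1, chr16:70289670-70289709, minus strand: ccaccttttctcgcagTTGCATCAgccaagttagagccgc
TARS1, chr5:33440951-33440990, plus strand: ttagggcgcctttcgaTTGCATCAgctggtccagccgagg
IARS1, chr9:92293687-92293726, minus strand: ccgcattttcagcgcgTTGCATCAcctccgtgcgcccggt
MARS1, chr12:57488048-57488087, plus strand: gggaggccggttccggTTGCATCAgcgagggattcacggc

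Genes for making amino acids rose next. Of 23 enzymes of amino acid synthesis and one-carbon metabolism, 14 rose and 1 fell (median log2 fold change 1.36), and without DMSO replicate 2 the counts were 16 and 3. ASNS, the asparagine synthetase on chromosome 7 (97851677 to 97872542) whose promoter element is shown above, was at 73.2, 65.6 and 76.7 CPM under DMSO and at 366, 385 and 373 CPM under NCP26 (log2 fold change 2.38 ± 0.13, adjusted p = 1.85e-04, 2.32 without DMSO replicate 2). The serine pathway moved as a line: PHGDH from 88.5 ± 21.1 to 338 ± 8.29 CPM, PSAT1 from 51.7 to 339 CPM (means of 58.5, 41.4 and 55.3 and of 332, 331 and 355 CPM), and PSPH by 1.71 on the log2 scale. The mitochondrial folate enzymes SHMT2, MTHFD2, MTHFD1L and ALDH1L2 rose by 1.44, 1.61, 0.98 and 1.95 on the log2 scale. Their cytosolic counterpart MTHFD1 was the member that fell, from 97.1 ± 4.90 to 55.9 ± 2.41 CPM (log2 fold change -0.80 ± 0.12, adjusted p = 0.00936). BCAT1, the cytosolic branched-chain aminotransferase, was near 1 CPM in the DMSO libraries (1.27, 0.38 and 1.01) and at 7.27, 12.9 and 11.8 CPM under NCP26. CTH and CBS, which make cysteine from methionine by transsulfuration, rose by 2.79 ± 0.21 and 1.36 ± 0.12, and ASS1 of arginine synthesis by 2.13 ± 0.18. In proline synthesis, the branch nearest to the target of NCP26, PYCR1 rose by 0.54 ± 0.12 (adjusted p = 0.0383), while ALDH18A1 was at -0.12 and PYCR3 at -0.18, neither called with or without DMSO replicate 2.

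Amino acid transporters split. Of 18 tested, 8 rose and 1 fell, with a median log2 fold change of 0.39 (0.70, 10 and 2 without DMSO replicate 2). SLC7A11, the cystine importer, was at 15, 23.01 and 16.9 CPM under DMSO and at 122, 139 and 144 CPM under NCP26 (log2 fold change 2.90 ± 0.19, adjusted p = 4.18e-04). SLC3A2, the heavy chain it shares with SLC7A5, rose by 1.71 ± 0.14, the large neutral amino acid carrier SLC7A5 by 1.31 ± 0.28, and the glutamine carrier SLC1A5 from 196, 197 and 198 to 757, 716 and 712 CPM. The glycine carrier SLC6A9 rose by 2.65 ± 0.28, with 16.3, 24.5 and 10.6 CPM under DMSO and 120, 102 and 95.9 CPM under NCP26. SLC6A6, which imports taurine rather than a protein amino acid, was the member that fell, from 141 ± 47.3 to 66.7 ± 5.65 CPM. Among 25 tested genes of amino acid sensing and mTORC1 control, SESN2 and RRAGC rose, the latter by 0.62 ± 0.15 (adjusted p = 0.045), 0 fell, and the median was 0.11, beside 5 rises and 0 falls without DMSO replicate 2.

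The transcripts of the synthetases themselves rose in the cytosolic set and not in the mitochondrial one. Of 20 cytosolic synthetases 10 rose and 0 fell (median 0.82), and without DMSO replicate 2 13 rose and 2, FARSA and QARS1, fell. EPRS1, the target of NCP26, on chromosome 1 (219968600 to 220046530), was at 578, 574 and 559 CPM under DMSO and at 868, 1001 and 999 CPM under NCP26. The groups did not overlap, with a log2 fold change of 0.75 ± 0.14 (adjusted p = 0.0206), which was also 0.75 without DMSO replicate 2. WARS1, for tryptophan, moved most, from 60.8, 65.6 and 65.1 to 402, 390 and 353 CPM (log2 fold change 2.58 ± 0.13), followed by GARS1 for glycine (1.87 ± 0.15), SARS1 for serine (1.62 ± 0.21) and AARS1 for alanine (1.46 ± 0.13). HARS1, KARS1, RARS1, FARSB and VARS1 lay between -0.13 and 0.25 and were not called in either fit. Of 17 mitochondrial synthetases 0 were called with edgeR (median -0.19), and 0 rose and 3 fell without DMSO replicate 2. Over all tested genes 13.1% were higher and 15.5% lower without that library. Among 30 translation factors 1 was called with all libraries, and 3 rose and 3 fell without DMSO replicate 2. The 1 called was EIF1, which selects the start codon, at 665, 483 and 649 CPM under DMSO and 1254, 1281 and 1301 CPM under NCP26.

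**Figure D3:**
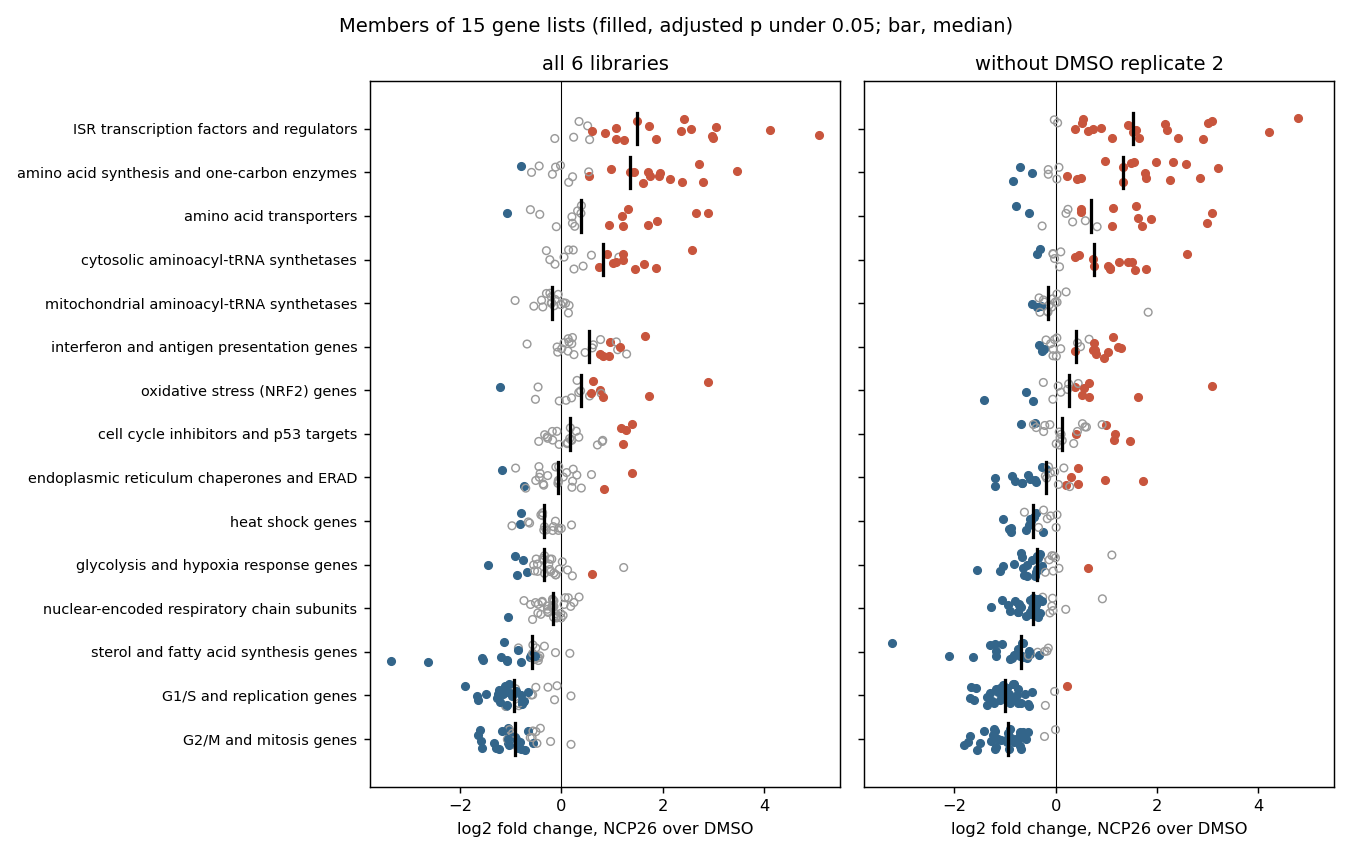
Log2 fold change (x axis, NCP26 over DMSO) of the tested members of 15 gene lists, with all 6 libraries on the left and without DMSO replicate 2 on the right. Filled points passed an adjusted p of 0.05, red for higher and blue for lower, grey rings did not, and bars are list medians: 1.48 for the ISR list and -0.91 for the G2/M list on the left.

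Sterol and fatty acid synthesis genes fell. Of 26 tested, 13 fell and 0 rose, with a median log2 fold change of -0.59, and 21 fell without DMSO replicate 2. INSIG1, which holds back sterol synthesis and is itself a target of the sterol-sensing factor SREBF2, was at 177, 149 and 184 CPM under DMSO and at 61.1, 55.4 and 58.4 CPM under NCP26. All NCP26 values lay below all DMSO values (log2 fold change -1.55 ± 0.14, adjusted p = 0.00126, -1.64 without DMSO replicate 2). FASN, the fatty acid synthase, was at 491, 1119 and 452 CPM under DMSO and at 127, 100 and 105 CPM under NCP26. The value of DMSO replicate 2 was far above its 2 replicates for this long transcript of 8464 bases, and the log2 fold change was -2.64 ± 0.36 with it and -2.10 ± 0.10 without it. The cholesterol synthesis enzymes MSMO1 and DHCR7 had log2 fold changes of -1.13 ± 0.15 and -1.20 ± 0.17, and SCD, which desaturates fatty acids, went from 2566, 3177 and 2640 to 1592, 1580 and 1481 CPM. SREBF1 and SREBF2 were at -0.57 and -0.45 and not called with all libraries.

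Replication and mitosis genes fell as broadly. Of 34 tested G1/S and replication genes 23 fell and 0 rose (median -0.94), and of 33 G2/M and mitosis genes 21 fell and 0 rose (median -0.91). The falls numbered 31 in each list without DMSO replicate 2, while CCND2 was called higher in the first. RRM2, the ribonucleotide reductase subunit that supplies deoxynucleotides, was at 125, 130 and 160 CPM under DMSO and at 40.7, 49.5 and 42.2 CPM under NCP26 (log2 fold change -1.65 ± 0.15, adjusted p = 0.00152, -1.69 without DMSO replicate 2). MCM10, a replication initiator, went from 27.96, 29.9 and 26.99 to 7.93, 9.64 and 9.12 CPM. The helicase subunits MCM2 and MCM5 changed by -1.15 and -1.04, and MCM6 by -0.14, the last without a call in either fit. Among mitotic genes, the kinesin KIF20A was at 34.8, 32.2 and 41.6 CPM under DMSO and at 13.2, 11.4 and 11.1 CPM under NCP26, and the kinase PLK1 at 61.3, 55.6 and 58.0 against 25.8, 28.9 and 30.1 CPM. The proliferation marker MKI67 had a log2 fold change of -1.65 ± 0.30, or -1.21 without DMSO replicate 2. HMMR, at 0.19, and CDC25C, at -0.22, were the G2/M genes not called in either fit. Of the D-type cyclins, CCND1 was below the count filter, CCND3 was at -0.60 (adjusted p = 0.135) and CCND2 was at 392, 684 and 412 CPM under DMSO and at 445, 485 and 471 CPM under NCP26. The direction of CCND2 turned with DMSO replicate 2, from -0.09 (adjusted p = 0.857) with it to 0.22 (adjusted p = 0.036) without it. The list of 8 tested replication-dependent histones, whose close copies share reads, had 1 rise (H4C8) and 0 falls, and 3 and 0 of 9 without DMSO replicate 2. The libraries were selected for poly(A) RNA, so these counts say little on histone transcripts without a poly(A) tail.

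A few death and arrest genes rose. Of 23 tested cell cycle inhibitors and p53 targets 4 rose and 0 fell (median 0.18), and of 17 pro-apoptotic BCL2 family and death receptor genes 4 rose and 0 fell (median 0.18), with TNFRSF10B, BBC3 and PMAIP1 in both lists. The counts without DMSO replicate 2 were 5 rises and 2 falls of 24 in the first list and 6 and 2 of 18 in the second. TNFRSF10B, the death receptor DR5, which CHOP is known to induce, was at 58.0, 65.2 and 53.5 CPM under DMSO and at 158, 152 and 150 CPM under NCP26 (log2 fold change 1.38 ± 0.13, adjusted p = 0.00145, 1.46 without DMSO replicate 2). BBC3 (PUMA) and PMAIP1 (NOXA), both BH3-only killers, had log2 fold changes of 1.21 ± 0.15 and 1.28 ± 0.25. CDKN1A (p21) was at 10.7, 6.14 and 9.59 CPM under DMSO and at 21.8, 18.8 and 20.6 CPM under NCP26, without overlap. Other p53 targets of the list were not called with all libraries: MDM2 had a log2 fold change of 0.16, BAX of -0.27, FAS of 0.81 and ZMAT3 of 0.29. Among 11 tested survival genes the kinase PIM1 fell by 0.57 and 0 rose with all libraries, whereas 5 rose and 3 fell without DMSO replicate 2. MCL1, the BCL2 relative on which myeloma cells depend, was at 550, 517 and 562 CPM against 757, 777 and 809 CPM, and passed the threshold only without DMSO replicate 2 (0.52, adjusted p = 0.0526 with it, and 0.49, adjusted p = 1.20e-04, without it).

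Protein-folding genes moved in both directions. Of 26 tested endoplasmic reticulum chaperones and degradation factors 2 rose and 2 fell (median -0.07). The stress sensor ERN1 (IRE1) rose by 1.39 ± 0.24 and SEL1L, an adaptor of the degradation machinery, by 0.84 ± 0.16, whereas the disulfide isomerase PDIA4 and DERL3 had log2 fold changes of -0.74 and -1.18. HSPA5 (BiP), the main chaperone of the compartment, was at -0.27 and XBP1 at -0.35, neither called with all libraries. Without DMSO replicate 2, 6 of the 26 rose and 12 fell, HSPA5, CALR and XBP1 among those lower. Heat shock genes had 0 rises and 2 falls of 18, HSPA8 (-0.79 ± 0.16) and HSPH1 (-0.83 ± 0.13), and 0 and 11 without DMSO replicate 2. The 30 tested proteasome subunits, the direct target family of carfilzomib, had 0 calls (edgeR, median 0.18). Without DMSO replicate 2, 1 rose and 4 fell, beside 13.1% higher and 15.5% lower over all tested genes, and the median was -0.03. That shift moved with the library whose short transcripts were low, and its part in the medians of the lists of short transcripts was not tested.

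The plasma cell and myeloma genes called with all libraries were lower, and calls went in both directions without DMSO replicate 2. Over all tested genes 2.71% were higher and 4.38% lower with all libraries, and 13.1% and 15.5% without DMSO replicate 2. Of 25 tested plasma cell and myeloma genes 0 rose and 3 fell (median -0.10), among them the homing integrin ITGB7 by 0.80 and the receptor TNFRSF13B (TACI) by 0.65 on the log2 scale, while 7 rose and 7 fell without DMSO replicate 2. MYC was at 344, 335 and 337 CPM under DMSO and at 291, 294 and 326 CPM under NCP26, lower in every library but not called (log2 fold change -0.16 ± 0.12, adjusted p = 0.498, 0.117 without DMSO replicate 2). SDC1 (CD138), the surface marker of plasma cells, had a log2 fold change of -0.17 ± 0.13 (adjusted p = 0.505). TCF3, PRDM1 and POU2AF1 had overlapping groups and log2 fold changes of -0.10, 0.07 and -0.18, and PIM2 was at 0.14 (adjusted p = 0.582). IRF4, the factor on which myeloma survival rests, was at 460, 589 and 424 CPM under DMSO and at 642, 628 and 694 CPM under NCP26, higher without overlap, and was called only without DMSO replicate 2 (0.42, adjusted p = 0.181 with it, and 0.57, adjusted p = 1.13e-04, without it). JCHAIN and MZB1, of antibody assembly, had log2 fold changes of -0.89 and -0.86, called only without DMSO replicate 2, at -1.13 and -1.14. Of the 10 markers that identify the line, 0 were called with edgeR and all libraries, and 2 rose and 3 fell without DMSO replicate 2. The 24 tested MYC-linked ribosome biogenesis genes had 0 calls with all libraries (median -0.10), and 0 rises and 10 falls without DMSO replicate 2.

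In further lists the counts again grew when DMSO replicate 2 was left out, as did the share called over all tested genes (7.09% to 28.6%). Interferon and antigen presentation genes had 6 rises and 0 falls of 24 (median 0.54), and 10 rises and 3 falls without it (median 0.40). The antiviral GTPase MX1 went from 51.1, 52.2 and 55.0 to 112, 107 and 133 CPM, and IRF7, IRF9, ISG15 and OAS1 rose by 0.82, 0.76, 1.64 and 0.94. HLA-B, HLA-C and B2M were not called with all libraries, at 0.22, 0.13 and 0.05, and B2M was called lower without DMSO replicate 2 (-0.23, adjusted p = 0.00579). Oxidative stress genes of the NRF2 type had 6 rises and 1 fall of 17 (median 0.38), and 7 and 3 without DMSO replicate 2 (median 0.26). These rises include SLC7A11, which is also counted among the amino acid transporters above. FTH1, the ferritin heavy chain, whose many pseudogene copies make its count uncertain, was at 190, 153 and 204 CPM under DMSO and at 557, 666 and 587 CPM under NCP26. HMOX1, the haem oxygenase and usually a leading NRF2 target, was the member that fell with all libraries, from 96.6, 56.8 and 101 to 37.7, 36.1 and 36.8 CPM (log2 fold change -1.21 ± 0.22, -1.42 without DMSO replicate 2). Autophagy and lysosome genes had 3 rises and 0 falls of 22 (median 0.23), the membrane marker MAP1LC3B, the receptor SQSTM1 and WIPI1, by 0.84, 0.82 and 0.77, and 6 rises and 2 falls without DMSO replicate 2. Glycolysis and hypoxia genes had 1 rise and 5 falls of 29 (median -0.34), and 1 rise and 19 falls without DMSO replicate 2 (median -0.36). With all libraries VEGFA, which ATF4 also drives, was higher by 0.60 ± 0.13 and ADM, HILPDA, ALDOC, PFKFB3 and CA9 were lower. Of 17 tested immediate early genes 1 rose, the phosphatase DUSP5, and 0 fell, against 4 and 1 of 18 without DMSO replicate 2, and of 14 NF-kB genes 0 were called (edgeR) with all libraries and 5 rose and 2 fell without DMSO replicate 2.

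Against DMSO, the counts of lists of short, abundant transcripts depended on DMSO replicate 2, as did the share called over all tested genes (7.09% to 28.6%). Over all tested genes 2.71% were higher and 4.38% lower with all libraries, and 13.1% and 15.5% without that library. The same lists against NCP22 and halofuginol, which use no DMSO library, are given below. Of 65 cytosolic ribosomal proteins 0 were called with all libraries (median 0.24), and 0 rose and 8 fell without that library (median -0.09). Of 35 nuclear-encoded respiratory chain subunits only ATP5MC1 was called with all libraries, lower by 1.05, with a list median of -0.18. Without DMSO replicate 2 27 of the 35 fell, with a median of -0.44. The 13 mitochondrially encoded genes had 0 calls (edgeR, median -0.27) and 10 falls without it (median -0.22). The medians of the ribosomal and respiratory chain lists were lower without that library, and that of the mitochondrially encoded genes was not. Over all tested genes the log2 fold change correlated with log2 transcript length at -0.09 with all libraries and at 0.16 without DMSO replicate 2. A fit with an offset for GC content and transcript length called 1851 of 10511 genes, and its counts for these lists are not given here. The part of transcript length in the medians of these lists was not tested.

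Outside the lists the largest changes were spread over unrelated functions. Among the 12 largest rises, SNTB1, a syntrophin of the membrane skeleton, was at 6.10, 5.37 and 5.55 CPM under DMSO and at 44.9, 51.7 and 42.5 CPM under NCP26. The cold-sensing channel TRPM8 went from 1.53, 3.07 and 1.51 to 17.2, 15.1 and 14.5 CPM, and NIBAN1, a stress-induced regulator of translation, from 39.2, 61.7 and 42.6 to 315, 285 and 290 CPM. The largest fall among the 757 called genes was that of AKAP12, a kinase-anchoring protein, from 9.41, 9.59 and 10.3 to 0.66, 0.99 and 0 CPM. Its NCP26 values lie so near to 0 that the size and rank of this fall are uncertain (log2 fold change -3.96 ± 0.49). FGFR4, a growth factor receptor, changed by -2.84 ± 0.28, HES6 by -2.78 ± 0.23 and the DNA methyltransferase DNMT3B by -2.15 ± 0.18. WNK2 was also among the 12 largest falls, but DMSO replicate 2, at 17.6 CPM, was above 9.33 CPM in the next highest DMSO library, and without it the log2 fold change was -2.31 in place of -2.74. ADAM19, DCLK1, MMP15 and LY6H were among these falls too, at -2.53, -2.11, -2.43 and -2.55. Without DMSO replicate 2 they were at -2.21, -1.79, -2.41 and -2.79. That library was the highest under DMSO for ADAM19 and DCLK1 (102 and 92.8 CPM) and the lowest for LY6H (15.7 CPM).

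NCP26 was next set against NCP22 and halofuginol at the same dose and time, comparisons that do not use the DMSO libraries but share the 3 NCP26 libraries with each other and with the comparison above. Against NCP22, the compound on which the design of NCP26 was based, 3627 of 10635 genes differed (34.1%), 1725 higher (16.2%) and 1902 lower (17.9%) under NCP26. Against halofuginol, an analogue of halofuginone, it was 4179 of 10498 (39.8%), 1979 higher (18.9%) and 2200 lower (21%). Of the ISR genes 19 of 21 were higher than under NCP22 and 18 of 20 higher than under halofuginol, with 0 lower in either. Of the G2/M genes 31 of 33 were lower in both comparisons, and of the sterol and fatty acid genes 23 of 26. Of 35 nuclear-encoded respiratory chain subunits 28 were lower than under NCP22 (median -0.49) and 31 lower than under halofuginol (median -0.55). Of 65 cytosolic ribosomal proteins 10 and 44 were lower, and of 13 mitochondrially encoded genes 6 and 12. None of these 3 lists had a gene called higher. Of 30 proteasome subunits 6 and 9 were lower, and 1 and 0 higher.

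In values, CHAC1 was at 5.11, 4.61 and 2.21 CPM under NCP22, at 3.84, 4.99 and 1.85 CPM under halofuginol and at 45.3, 46.9 and 39.1 CPM under NCP26 when the 5 groups of the line at 24 h were scaled together. The log2 difference of CHAC1 was 3.48 ± 0.21 against NCP22 and 3.57 ± 0.22 against halofuginol, beside 4.11 ± 0.21 against DMSO. ASNS differed by 2.30 ± 0.08 and 2.27 ± 0.08, beside 2.38, and ATF4 by 0.85 ± 0.09 and 0.86 ± 0.07, beside 1.07 with and 0.89 without DMSO replicate 2. For FASN, where the DMSO libraries disagreed, NCP22 gave 393, 487 and 478 CPM and halofuginol 445, 433 and 436 CPM on this scale, near DMSO replicates 1 and 3 (477 and 439 CPM) and far from DMSO replicate 2 (1093 CPM). The log2 difference of FASN was -2.08 ± 0.11 against NCP22 and -2.04 ± 0.09 against halofuginol. MYC, not called against DMSO, was lower than under NCP22 by 0.42 ± 0.08 (adjusted p = 9.49e-04) and lower than under halofuginol by 0.43 ± 0.07 (adjusted p = 3.59e-04). On the common scale MYC was at 327 to 334 CPM under DMSO and at 281 to 317 CPM under NCP26. It was at 378 to 405 CPM under NCP22 and 383 to 410 CPM under halofuginol, above every DMSO library. These differences therefore also hold the higher MYC level under the compared compounds. BCAT1 was at 0.90, 0 and 0.25 CPM under NCP22 and at 7.02, 12.5 and 11.5 CPM under NCP26 on this scale, too near to 0 under NCP22 for a fold to be given.

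**Figure D4:**
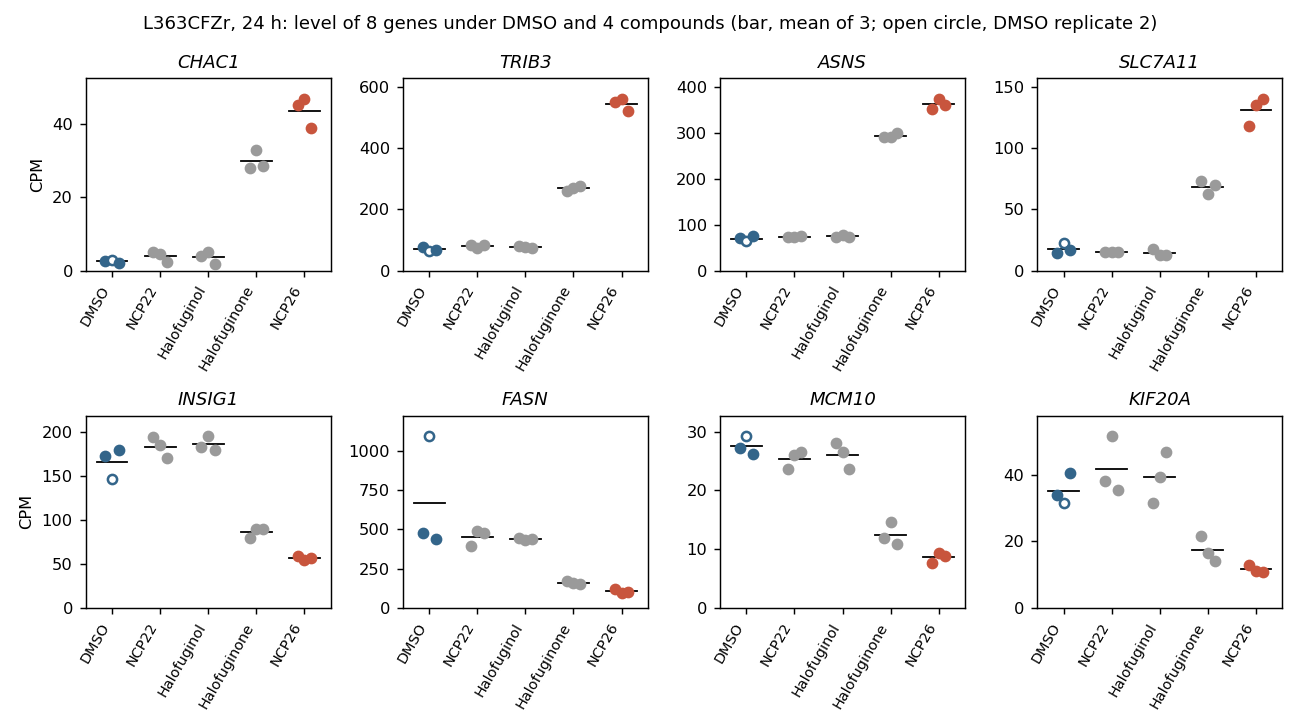
CPM of 8 genes (y axes from 0) in the 3 libraries of each of the 5 treatments of L363CFZr cells at 24 h, with the mean as a line and DMSO replicate 2 as an open circle. In each panel NCP26 lies further from DMSO replicates 1 and 3 than any other treatment, and FASN is at 393 to 487 CPM under NCP22, 433 to 445 CPM under halofuginol and 97.4 to 122 CPM under NCP26. This does not hold for all genes: HMOX1, not shown, was at 28.2 to 32.1 CPM under halofuginone and 35.1 to 36.4 CPM under NCP26.

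The response at 24 h was then compared with that at 6 h in L363CFZr cells, as an interaction over 12 libraries. Of 10992 genes 76 differed in response (0.691%), 14 with a more positive (0.127%) and 62 with a more negative (0.564%) log2 fold change at 24 h. Of 21 ISR genes 1 was called, PPP1R15A, with a larger rise at 24 h (difference 0.70 ± 0.14, adjusted p = 0.0462), and the median difference was 0.13. ATF4, TRIB3 and SESN2 had log2 fold changes of 0.90, 3.09 and 2.82 at 6 h and 1.07, 2.98 and 2.98 at 24 h. The differences of CHAC1 (1.35, adjusted p = 0.117), ATF5 (0.74, adjusted p = 0.147) and STC2 (-0.75, adjusted p = 0.053) were wider but not called. ASNS, of the amino acid list, was at 2.33 and 2.38. Of the 33 G2/M genes 7 had a more negative log2 fold change at 24 h and 0 a more positive one. The median difference was -0.91, beside -0.02 over all genes. Of 34 G1/S genes 4 had a more negative log2 fold change at 24 h. KIF20A changed by 0.03 at 6 h and by -1.61 at 24 h (difference -1.63 ± 0.19, adjusted p = 0.00498), and PLK1 by 0.04 and -1.05 (difference -1.07 ± 0.19, adjusted p = 0.0213). WARS1 went from 1.64 at 6 h to 2.58 at 24 h. Without DMSO replicate 2 of 24 h, 404 genes were called, and without DMSO replicate 1 of 6 h 5. By the methods, which describe AMO1 cells, samples of 6 h were frozen overnight before extraction and those of 24 h kept on ice, so time and storage cannot be told apart.

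Against AMO1 cells at 24 h, L363CFZr cells responded more strongly in the amino acid branch. Of 11239 genes 608 differed in response (5.41%), 334 more positive (2.97%) and 274 more negative (2.44%) in L363CFZr cells. Of the 23 amino acid synthesis genes 14 had a more positive response and 1 a more negative one (median difference 0.86), and of 21 ISR genes 7 and 0 (median 0.31), beside a median of -0.04 over all genes. ATF4 transcripts had a log2 fold change of -0.36 in AMO1 and 1.07 in L363CFZr cells (difference 1.41 ± 0.21, adjusted p = 0.00286), ASNS of 0.97 and 2.38 (1.39 ± 0.13), PSAT1 of 0.83 and 2.71 (1.84 ± 0.16) and CHAC1 of 1.67 and 4.11 (2.42 ± 0.34). DDIT3, at 2.08 and 2.42, and ATF3, at 2.30 and 2.55, were not called (adjusted p = 0.554 and 0.59). CDKN1A had a log2 fold change of -0.34 in AMO1 and 1.18 in L363CFZr cells, and MYC of -0.88 and -0.16 (difference 0.69 ± 0.12, adjusted p = 0.00675). In the cell cycle lists 3 of 35 G1/S and 2 of 33 G2/M genes differed, each with a more positive response in L363CFZr cells. The lines differ in origin as well as in resistance, and by the sample numbers in the column names the AMO1 DMSO and NCP26 libraries of 24 h belong to different sets, so that set and treatment cannot be told apart there. Without DMSO replicate 2 of L363CFZr cells the count was 2407.

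**Figure D5:**
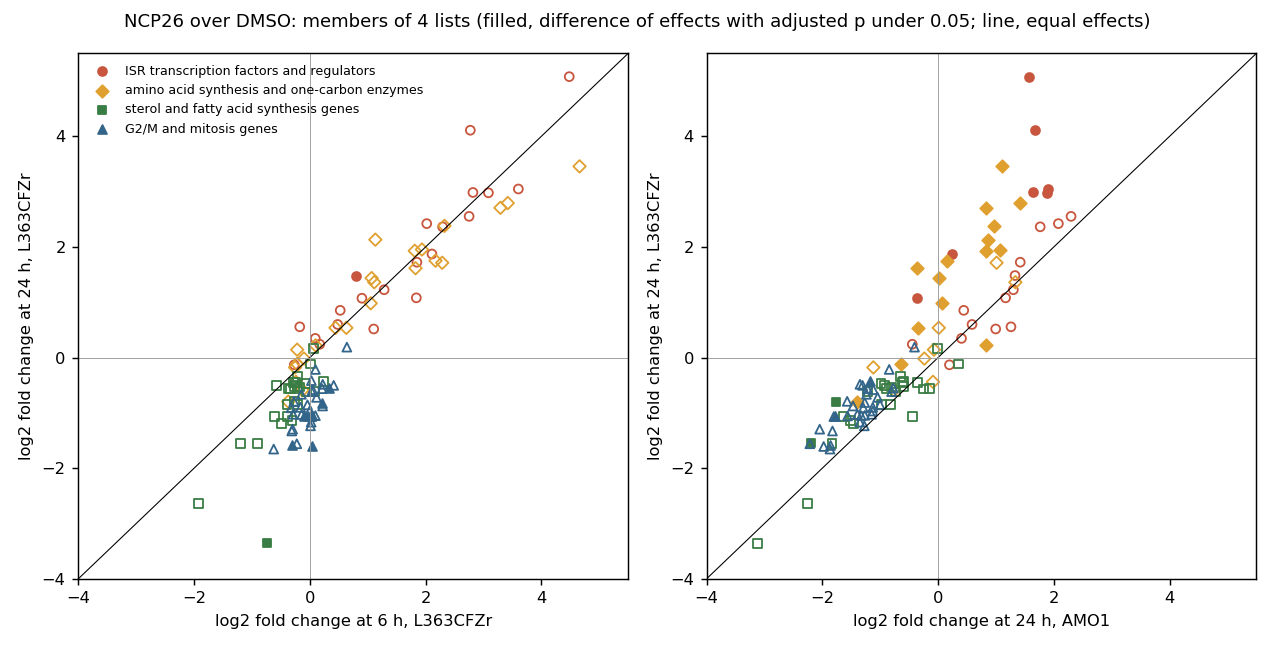
Log2 fold change of NCP26 over DMSO in L363CFZr cells at 24 h (y axes) against that in L363CFZr cells at 6 h (left) and in AMO1 cells at 24 h (right), for the members of 4 lists. Filled symbols have a difference of effects with an adjusted p under 0.05, among them 7 G2/M genes below the line on the left and 14 amino acid synthesis genes above it on the right. By time, 1 ISR gene was also called more positive and 1 sterol and fatty acid gene more negative at 24 h. By line, 7 ISR, 2 sterol and fatty acid and 2 G2/M genes were also called more positive in L363CFZr cells, and 1 amino acid synthesis gene more negative.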

How the data were processed

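The methods describe AMO1 cells treated in triplicate at 1 µM, with RNA sequenced as directional poly(A) libraries. L363CFZr cells were taken to have been handled alike. The authors pseudo-aligned reads with kallisto (31-mers) and deposited 1 table of raw counts per gene for the series, with whole numbers and no normalization. No source used here gives the kallisto version, the annotation, the rounding or the use of strand in counting, and the submitters' processing notes name hg19 whereas the methods name GRCh38. Reads from close gene copies or overlapping genes may therefore be split. Of 20167 genes 19299 (95.7%) matched GENCODE 44 by identifier for the GRCh38 positions, transcript lengths and GC content given.

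Genes were filtered with filterByExpr (minimum count 10, minimum total 15) on the libraries compared, scaled by TMM and tested with edgeR 4.0.16 (R 4.3.3) by the quasi-likelihood test, with Benjamini-Hochberg adjustment over all tested genes and a threshold of 0.05. SEs of log2 fold changes were derived from the F statistics (size over root F). Only the groups compared entered a fit, and differences in response were tested as interactions. An exact permutation test of 3 against 3 libraries cannot go below p = 0.1, so none was used. The report gives the range of total counts, whose counting error is part of the spread tested. Alternatives were DESeq2 1.42.0, its size factors, no filter, a replicate block, limma 3.58.1 voom with library weights, a fit with 5 groups, an offset for GC content and length, and leaving out each library. The scripts were tested on simulated data.

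Named genes were the 12 largest rises and 12 largest falls called with and without DMSO replicate 2 (mean of at least 5 CPM, no overlap), up to 4 called members per list with the lowest adjusted p, 24 genes fixed by name, and the 5 largest rises and 5 largest falls of each other comparison. Further list members were named after their values were seen. Some genes named by these rules are not reported here. The members and the 33 lists were chosen with earlier results of these data known. Whether same-numbered replicates pair was checked from their deviations from the group mean, whose correlations were -0.36, -0.29 and 0.23. DMSO replicate 2 enters that mean and so the deviation of each DMSO library. With NCP26 replicate 1, DMSO replicates 1 and 3 were at -0.361 and -0.359 and DMSO replicate 2 at 0.424. The check therefore cannot decide whether the numbers pair samples, and they were not taken to do so.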

Additional observations from a re-analysis of the deposited data

Results flagged for a closer look

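The NCP26 response differed between 24 h and 6 h by the interaction test in 76 genes. The differences most positive at 24 h were those of ANGPTL4 (1.61), KCNN3 (1.6), PFKFB4 (1.22), FTH1 (1.14) and CHPF2 (0.95), and among the most negative were those of AKAP12 (-3.27), LY6H (-2.29), FGFR4 (-2.22) and HES6 (-2.11), on the log2 scale. In NCP26 against DMSO at 24 h with all libraries, FTH1 was called higher (1.73) and AKAP12, LY6H, FGFR4 and HES6 were called lower. ANGPTL4 (0.32), KCNN3 (1.10), PFKFB4 (-0.37) and CHPF2 (-0.36) were not called there, and KCNN3 was called without DMSO replicate 2 (1.47). Each difference named here rests on the 6 h libraries as well. AKAP12 was at 0.66, 0.99 and 0 CPM under NCP26 at 24 h, so near to 0 that the size of its difference is uncertain. The L363CFZr libraries of 6 h and of 24 h carry sample numbers of different sets, so time, set and storage cannot be told apart.

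The response differed between L363CFZr and AMO1 cells in 608 genes. The most positive differences were those of IRAG2 (4.82), GDF15 (3.47), KLF2 (2.71), SNTB1 (2.52) and CHAC1 (2.42), and the most negative those of HMOX1 (-3.56), ARVCF (-3.18), CD82 (-2.86), ZFHX3 (-2.56) and NPIPB4 (-2.40), the last a member of a family of close copies. Of these, ZFHX3 (3.05, 11.5 and 3.53 CPM under DMSO) and NPIPB4 (18.8, 46.8 and 18.7 CPM) were highest in DMSO replicate 2 of L363CFZr cells, and without it their differences were -1.83 and -1.88. IRAG2 was at 0 in each L363CFZr DMSO library and GDF15 in 2 of 3, so both values depend on the prior count and are no bounds. CD82 was also near 0 in L363CFZr cells, at 3.81, 3.84 and 3.03 CPM under DMSO and 1.32, 0.49 and 0.68 CPM under NCP26. IRAG2 did not pass the count filter of NCP26 against DMSO in L363CFZr cells at 24 h. In that comparison KLF2, ARVCF, ZFHX3 and NPIPB4 were not called with all libraries, so their differences rest partly on the AMO1 libraries. The AMO1 DMSO and NCP26 libraries of 24 h carry sample numbers of different sets, so set and treatment cannot be told apart in AMO1 cells.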

How the results depend on the processing

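For NCP26 against DMSO, 757 genes were called, and 753 with DESeq2 size factors, 737 without the filter and 1001 with DESeq2. The count was 2268 with 5 groups in one fit, 3640 with limma voom and library weights, and 1851 with an offset for GC content and length. Leaving out 1 library gave 112 to 3123, each library moving the count by more than 1.5 times: 276, 3123 and 287 without DMSO replicates 1, 2 and 3, and 171, 112 and 132 without NCP26 replicates 1, 2 and 3. Of the 757 genes, 106 (60 higher, 46 lower) were called in all 6 of these fits and in every alternative without the block. With the replicate block, where the numbers are not known to pair samples, 156 genes were called, and 1135 with the block and the offset. Against NCP22 the counts were 2745 to 3436 when 1 library was left out, 2861 with the replicate block and 2706 with DESeq2, and against halofuginol 3415 to 4211, 3982 and 3259.

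For 24 h against 6 h, DESeq2 called 192 genes, the replicate block 0 with edgeR (940 at an unadjusted p under 0.05), and leaving out 1 library gave 5 to 404. Each library but NCP26 replicate 2 of 6 h (69 without it) moved that count by more than 1.5 times: 30, 404 and 30 without DMSO and 17, 15 and 23 without NCP26 replicates 1, 2 and 3 of 24 h, 5, 37 and 8 without DMSO replicates 1, 2 and 3 of 6 h, and 8 and 27 without NCP26 replicates 1 and 3 of 6 h. For L363CFZr against AMO1 the replicate block gave 90 and leaving out 1 library 282 to 2407 (357, 298 and 354 without L363CFZr NCP26 replicates 1, 2 and 3, 318, 282 and 284 without AMO1 DMSO replicates 1, 2 and 3, and 282, 310 and 307 without AMO1 NCP26 replicates 1, 2 and 3), in both cases highest without DMSO replicate 2 of 24 h. The causes were not tested.

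Among the named genes, values that turned direction were those of CCND2 (-0.23 to 0.215 when 1 library was left out, positive without DMSO replicate 2, 0.208 with voom, 0.00 with the offset and 0.009 with block and offset, against -0.09), PRDM1 (-0.034 to 0.243 when 1 library was left out, negative without DMSO replicate 3) and TCF3 (0.092 with the offset and 0.095 with block and offset). Of 1409 values of 101 named genes 1159 kept direction and side of the threshold, 214 lost and 29 gained the call and 7 turned. Depth limits genes near 0, such as GDF15 and BCAT1 under DMSO and AKAP12 and CD82 under NCP26.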

Other observations

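Halofuginone, another inhibitor of prolyl-tRNA synthetase, was also given to L363CFZr cells at 1 µM for 24 h, and its levels are set here beside those of NCP26 without a test. CHAC1 was at 28.1, 32.9 and 28.5 CPM under halofuginone and at 45.3, 46.9 and 39.1 CPM under NCP26. TRIB3 was at 259 to 277 CPM and at 521 to 560 CPM, and ASNS at 291 to 300 CPM and at 353 to 375 CPM. The lipid gene FASN was at 153 to 172 CPM under halofuginone and at 97.4 to 122 CPM under NCP26, both below DMSO replicates 1 and 3 at 477 and 439 CPM. Other genes did not differ in this way. HMOX1 was at 28.2 to 32.1 CPM under halofuginone and 35.1 to 36.4 CPM under NCP26, and IRF4 at 676 to 699 and 611 to 675 CPM. The ranges overlapped for ASS1 (100 to 110 and 98.8 to 104 CPM) and MX1 (112 to 132 and 104 to 129 CPM).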
